A study of Rattus norvegicus with 9 samples.

Results

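The genes of hyaluronan metabolism and of the chondroitin sulfate proteoglycans were followed in cultured rat fibroblasts as a group of 10. The list names them by symbol and sets no limit on measured values, and it was drawn up with earlier results of these data known. They are 3 hyaluronan synthases (*Has1*, *Has2* and *Has3*), 2 hyaluronidases (*Hyal1* and *Hyal2*), 2 hyaluronan-binding proteins (*Cd44* and *Tnfaip6*) and 3 chondroitin sulfate proteoglycans (*Vcan*, *Ncan* and *Cspg4*). These 10 genes were among the 32883 genes in the deposited tables. All 10 passed the expression filter that left 13273 genes to test, although *Ncan* did so through its counts in Fb-Par only and *Has1* through those in both nerve-derived types.

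The fibroblasts were grown from the epineurium (Fb-Epn) and the parenchyma (Fb-Par) of sciatic nerves and from abdominal skin (Fb-Skn) of wild-type male Lewis rats at 10 weeks of age, with 3 RNA samples of each type. The labels name no treatment for any of the 3 types, and all were kept in the same medium with 10% fetal bovine serum and passaged 1 time. The nerves came from 2 rats and the skin from 1 other rat, so the 3 samples of a type were not 3 animals, and the p-values measure only the spread between these samples, which may be technical. Tissue, rat and body site cannot be told apart where a nerve-derived type is set against Fb-Skn, and endoneurial and perineurial cells were not separated in Fb-Par. The study asked which molecules might underlie the different support that these fibroblasts gave to growing neurites.

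Hyaluronan is a long unsulfated sugar chain that synthases in the plasma membrane extrude directly into the matrix, and hyaluronidases cut it for turnover. Cell-surface receptors and secreted binding proteins then anchor or remodel it, and lectican proteoglycans such as versican bind it through their N-terminal domain. The chondroitin sulfate chains that these proteoglycans carry are known in the nervous system for restricting the growth of axons.

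The libraries held 10084584 to 12310506 counts each, and the shared estimate of the coefficient of variation among samples was 8.25%. Levels are given below as TPM, a unit of transcript abundance that takes account of gene length. Differences between types are log2 fold changes of edgeR's quasi-likelihood test on the counts, with Benjamini-Hochberg adjustment over all genes tested and a threshold of 0.01. The DE genes of the text passed this threshold with an absolute log2 fold change of more than 2. On the TPM scale the median gene was 0.13 (Fb-Epn) and 0.12 (Fb-Par) log2 units above Fb-Skn, which edgeR's normalization removed, so a TPM ratio to Fb-Skn overstates the edgeR fold by about that much. The 7 fibroblast markers were detected in every library, with summed TPM of 35521 to 36169 for Fb-Epn, 28939 to 29660 for Fb-Par and 33770 to 37982 for Fb-Skn. Markers of other cells were also measured: 7 Schwann cell markers summed to 190.2 to 201 TPM for Fb-Epn, 254 to 262 for Fb-Par and 10.5 to 13.2 for Fb-Skn, where *Sox10*, *Erbb3* and *Cdh19* were at 0. The 5 endothelial cell markers found summed to at most 11.2 TPM in any library, the 4 keratinocyte markers to at most 1.65 and the 4 melanocyte markers to at most 3.53. Sums in the order Fb-Epn, Fb-Par, Fb-Skn were 156 to 163, 41.3 to 46.8 and 75.3 to 84.1 TPM for 4 perineurial cell markers, 44.1 to 58.1, 16.2 to 17.0 and 1.26 to 1.45 for 4 adipocyte markers, and 158 to 173, 25.9 to 27.4 and 75.8 to 80.8 for 5 proliferation markers. Only 2 of the perineurial cell markers passed the expression filter, and *Cldn1* and *Krt18* were at 0 in Fb-Skn. Of the adipocyte markers 1 passed it, with *Lep* at 0 in both nerve-derived types and *Plin1* at 0 in Fb-Skn.

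Of the synthases, *Has1* had the largest fold changes against Fb-Skn, and was higher in both nerve-derived types. It lies on the minus strand of chromosome 1 of rn6, from 59720612 to 59732409 (ENSRNOG00000010994). The TPM was 3.61, 2.94 and 3.85 in the Fb-Epn libraries, 2.78, 2.31 and 2.68 in the Fb-Par libraries and 0.0876, 0.10 and 0.696 in the Fb-Skn libraries. Every nerve-derived library was above every Fb-Skn library, and the Fb-Epn and Fb-Par ranges did not overlap either. The Fb-Skn values stood on 1, 1 and 7 counts, against 23 to 41 in the nerve-derived libraries. Only through the latter was the gene kept for testing, so its tests against Fb-Skn serve as a description. The log2 fold change was 3.40 (SE 0.479, adjusted p = 2.9e-05, edgeR) for Fb-Epn over Fb-Skn and 2.98 (SE 0.493, adjusted p = 1.3e-04, edgeR) for Fb-Par over Fb-Skn. From the summed counts, the ratio to Fb-Skn was 10.9 in Fb-Epn (95% exact interval 5.56 to 24.5) and 8.19 in Fb-Par (4.11 to 18.5), intervals that cover counting error only. The size rested on 1 library: without Fb-Skn replicate 3, the log2 fold changes were 4.91 and 4.49. Between Fb-Epn and Fb-Par the log2 fold change of 0.42 did not pass the test (95% interval -0.32 to 1.16, adjusted p = 0.33, edgeR).

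*Has2*, the main hyaluronan synthase of most mesenchymal cells, was lower in Fb-Par than in either other type. The gene (ENSRNOG00000004854) is on chromosome 7 of rn6, minus strand, from 96438046 to 96464049. TPM was 10.7, 11.2 and 11.0 in Fb-Epn, 6.20, 6.01 and 6.05 in Fb-Par and 11.0, 11.8 and 13.4 in Fb-Skn. The 3 Fb-Par libraries lay below the other 6, whereas the Fb-Epn and Fb-Skn ranges overlapped. *Has2* was 1.82-fold higher in Fb-Epn compared with Fb-Par (log2 0.86, SE 0.0943, adjusted p = 2.6e-06, edgeR) and 2.20-fold higher in Fb-Skn compared with Fb-Par (log2 fold change of Fb-Par over Fb-Skn -1.14, SE 0.0941, adjusted p = 1.0e-07, edgeR). Between Fb-Epn and Fb-Skn the log2 fold change was -0.28 (95% interval -0.47 to -0.08, adjusted p = 0.017, edgeR), short of the threshold.

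*Has3*, the third synthase, was near the limit of detection and passed the test in none of the comparisons. On chromosome 19 of rn6 (plus strand, 39063998 to 39077722, ENSRNOG00000059362) it shares 143 bases with *Chtf8* on the opposite strand, and since the strand setting of the counting is not given in the sources used here, some of its reads may belong to that gene. Its counts ranged from 9 to 16 per library, and its TPM was 0.313 ± 0.122 (SD, n = 3) for Fb-Epn, 0.292 ± 0.0212 for Fb-Par and 0.290 ± 0.0473 for Fb-Skn. The ranges of all 3 types overlapped. The widest interval ran from -0.98 to 0.72 on the log2 scale (Fb-Par over Fb-Skn), so a difference of less than about that size was not detectable at this depth.

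Read as shares of the summed TPM of the 3 synthases, *Has2* was the main one in every library. *Has1* took 20.5% to 25.1% for Fb-Epn, 26.9% to 29.9% for Fb-Par and 0.771% to 4.83% for Fb-Skn, so its share was higher in all 6 nerve-derived libraries than in any Fb-Skn library. The summed level was 14.8 ± 0.511 TPM (SD, n = 3) for Fb-Epn, 8.97 ± 0.355 for Fb-Par and 12.7 ± 1.57 for Fb-Skn. For the share, and for the sum in Fb-Par against either other type, the exact two-sided permutation test gave p = 0.10, the smallest that 3 samples against 3 allow. The summed level of Fb-Epn and Fb-Skn overlapped (exact permutation p = 0.20).

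**Figure D1:**
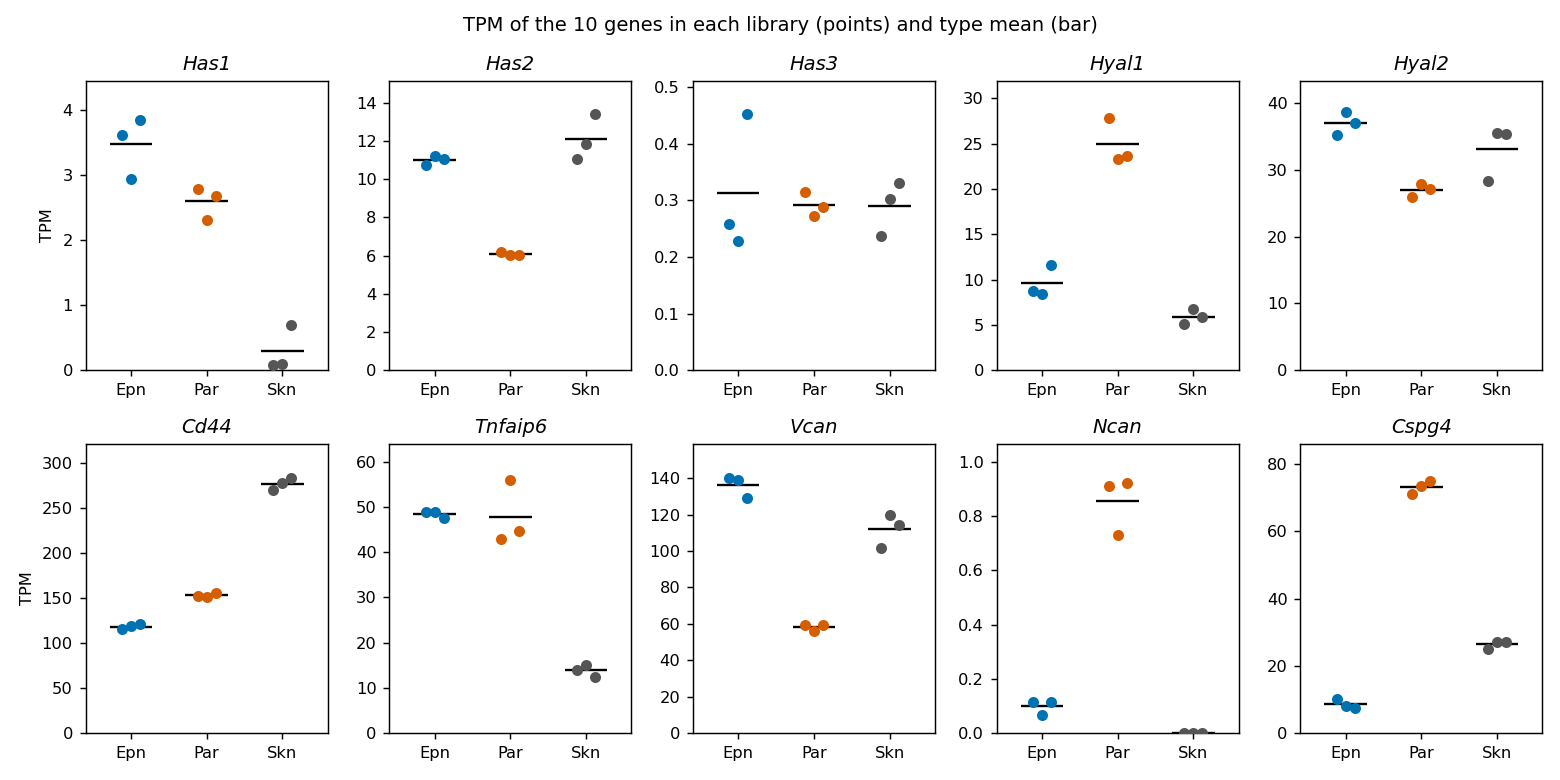
TPM (vertical axes, each from 0) of the 10 genes in the 3 libraries of each fibroblast type (points), with the type mean as a bar. *Cd44* was highest in Fb-Skn, at 271 to 284 TPM, *Cspg4* and *Hyal1* were highest in Fb-Par, and *Ncan* was at 0 in all Fb-Skn libraries.

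*Hyal1* and *Hyal2*, which cut hyaluronan in lysosomes and at the cell surface, are neighbours on the plus strand of chromosome 8 of rn6. *Hyal2* (ENSRNOG00000031420, 116324040 to 116328978) ends 3817 bases before *Hyal1* (ENSRNOG00000015858, 116332796 to 116335435). They differed between Fb-Par and the other types in opposite directions.

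The *Hyal1* TPM was 8.79, 8.41 and 11.6 in Fb-Epn, 27.9, 23.3 and 23.7 in Fb-Par and 5.15, 6.77 and 5.85 in Fb-Skn. None of these ranges overlapped, and Fb-Par was the highest. *Hyal1* was 3.80-fold higher in Fb-Par compared with Fb-Skn (log2 1.93, SE 0.158, adjusted p = 9.1e-08, edgeR) and 2.58-fold higher than in Fb-Epn (log2 fold change of Fb-Epn over Fb-Par -1.37, SE 0.149, adjusted p = 2.4e-06, edgeR). Fb-Epn over Fb-Skn gave 0.56 (95% interval 0.20 to 0.92, adjusted p = 0.011, edgeR), just outside the threshold.

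The *Hyal2* TPM was 35.3, 38.7 and 37.0 in Fb-Epn, 25.9, 27.9 and 27.1 in Fb-Par and 28.4, 35.6 and 35.4 in Fb-Skn. Fb-Par had the 3 lowest libraries, while Fb-Epn and Fb-Skn overlapped. *Hyal2* was 1.38-fold higher in Fb-Epn compared with Fb-Par (adjusted p = 3.6e-04, edgeR) and 1.36-fold higher in Fb-Skn compared with Fb-Par (adjusted p = 5.3e-04, edgeR). The latter call was lost with limma on log2(TPM + 1) (log2 -0.28, adjusted p = 0.020). Between Fb-Epn and Fb-Skn the log2 fold change of 0.02 had a 95% interval from -0.16 to 0.21. The ratio of *Hyal1* to *Hyal2* TPM was 0.260 ± 0.0496 (SD, n = 3) for Fb-Epn, 0.927 ± 0.128 for Fb-Par and 0.179 ± 0.0127 for Fb-Skn, with no overlap between types (exact permutation p = 0.10 for each pair, the smallest possible).

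The 250 bases upstream of these neighbours are shown because the genes lie side by side and differ in opposite directions. RefSeq (GRCr8, another build than the rn6 of the counts) gives the windows chr8:117129061-117129310 for *Hyal1* and chr8:117121552-117121801 for *Hyal2*, both on the plus strand. Capitals mark matches on either strand to the GC box (written GGGCGG), the CCAAT box, the TATA box (written TATAAA), the AP-1 letters (written TGANTCA), the E-box (written CACGTG) or the kappaB consensus, and no match overlapped another.
Hyal1: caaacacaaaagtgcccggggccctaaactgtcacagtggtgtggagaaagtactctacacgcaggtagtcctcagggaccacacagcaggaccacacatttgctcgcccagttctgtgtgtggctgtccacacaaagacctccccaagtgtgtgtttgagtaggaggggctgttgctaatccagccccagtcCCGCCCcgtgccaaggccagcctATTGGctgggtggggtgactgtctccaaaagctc
Hyal2: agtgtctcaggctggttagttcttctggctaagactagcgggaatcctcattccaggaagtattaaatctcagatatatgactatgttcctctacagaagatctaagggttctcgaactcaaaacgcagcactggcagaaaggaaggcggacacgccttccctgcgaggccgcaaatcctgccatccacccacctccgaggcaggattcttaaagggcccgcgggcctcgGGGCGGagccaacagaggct
Of the 33469 windows of this length in the same table, 30.5% held a GC box match, 34.0% a CCAAT match, 12.9% a TATA box, 6.34% the AP-1 letters, 5.59% the E-box and 3.54% the kappaB consensus. Both windows held 1 GC box match, whose first base was 57 bases before the start of *Hyal1* and 20 bases before that of *Hyal2*. *Hyal1* also had a CCAAT match at 34 bases. These matches describe the letters and were not tested as binding sites.

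*Cd44*, the main cell-surface receptor for hyaluronan, was the most abundant of the 10 genes in Fb-Par and Fb-Skn. It lies on chromosome 3 of rn6, minus strand, from 92696313 to 92783658 (ENSRNOG00000006094). The TPM was 116, 119 and 121 in Fb-Epn, 152, 151 and 155 in Fb-Par and 271, 277 and 284 in Fb-Skn. The 3 types were fully separated, in the order Fb-Skn, Fb-Par, Fb-Epn. Fb-Skn was 2.58-fold above Fb-Epn (log2 fold change of Fb-Epn over Fb-Skn -1.37, SE 0.0310, adjusted p = 4.6e-14, edgeR) and 2.01-fold above Fb-Par (adjusted p = 1.1e-12, edgeR). Fb-Par was 1.28-fold above Fb-Epn (adjusted p = 2.0e-07, edgeR). By TPM, *Cd44* ranked 533 of the 13273 tested genes in Fb-Skn and 1368 in Fb-Epn.

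*Tnfaip6* encodes TSG-6, a secreted protein that transfers heavy chains from inter-alpha-inhibitor to hyaluronan during inflammation, and its pattern was unlike that of *Cd44*. The gene is on chromosome 3 of rn6, plus strand, from 37545238 to 37564699 (ENSRNOG00000050792). Its TPM was 48.9, 48.9 and 47.6 in Fb-Epn, 43.0, 56.0 and 44.7 in Fb-Par and 14.0, 15.1 and 12.4 in Fb-Skn. All nerve-derived libraries were above all Fb-Skn libraries, and the Fb-Epn values lay within the Fb-Par range. *Tnfaip6* was 3.18-fold higher in Fb-Epn (log2 1.67, SE 0.117, adjusted p = 1.7e-08, edgeR) and 3.11-fold higher in Fb-Par (log2 1.64, SE 0.117, adjusted p = 1.9e-08, edgeR) than in Fb-Skn. Between Fb-Epn and Fb-Par the log2 fold change was 0.03 (95% interval -0.19 to 0.25, adjusted p = 0.84, edgeR).

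*Vcan*, which encodes the large hyaluronan-binding proteoglycan versican, and *Cspg4*, which encodes the transmembrane proteoglycan NG2, had opposite orders of their mean levels. *Vcan* is on the minus strand of chromosome 2 of rn6, from 18490102 to 18565842 (ENSRNOG00000029212), and *Cspg4* on the plus strand of chromosome 8, from 61532465 to 61567510 (ENSRNOG00000017208). The *Vcan* TPM was 140.4, 139 and 129 in Fb-Epn, 59.2, 56.1 and 59.3 in Fb-Par and 102, 120.0 and 114 in Fb-Skn. Fb-Par was lowest and Fb-Epn highest, with no overlap. *Vcan* was 2.36-fold higher in Fb-Epn compared with Fb-Par (log2 1.24, SE 0.0478, adjusted p = 2.0e-11, edgeR) and 2.13-fold higher in Fb-Skn compared with Fb-Par (log2 fold change of Fb-Par over Fb-Skn -1.09, SE 0.0478, adjusted p = 7.0e-11, edgeR). The step from Fb-Skn to Fb-Epn was small (log2 0.15, 95% interval 0.05 to 0.25, adjusted p = 0.016, edgeR) and missed the threshold.

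The *Cspg4* TPM was 10.0, 8.07 and 7.36 in Fb-Epn, 71.1, 73.4 and 74.9 in Fb-Par and 24.9, 27.2 and 27.2 in Fb-Skn. Here Fb-Par was highest and Fb-Epn lowest, again with no overlap. *Cspg4* was 8.57-fold higher in Fb-Par compared with Fb-Epn (log2 fold change of Fb-Epn over Fb-Par -3.10, SE 0.0773, adjusted p = 1.6e-13, edgeR), which makes it a DE gene. It was 2.50-fold higher in Fb-Par compared with Fb-Skn (log2 1.32, SE 0.0688, adjusted p = 5.3e-10, edgeR) and 3.43-fold higher in Fb-Skn compared with Fb-Epn (log2 fold change of Fb-Epn over Fb-Skn -1.78, SE 0.0794, adjusted p = 1.0e-10, edgeR). NG2 is also carried by pericytes and some glial cells. The 6 mural cell markers, a list without *Cspg4*, summed to 76.0 to 79.2 TPM for Fb-Epn, 324 to 338 for Fb-Par and 136 to 146 for Fb-Skn, the same order as *Cspg4*, and *Rgs5* and *Kcnj8* of that list were at 0 in Fb-Skn. The 7 Schwann cell markers had another order, with 190.2 to 201 TPM for Fb-Epn, 254 to 262 for Fb-Par and 10.5 to 13.2 for Fb-Skn. The part of either marker list in the result was not tested. In bulk RNA, fewer cells of a type and less RNA per cell cannot be told apart.

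The ratio of *Vcan* to *Cspg4* TPM was 16.3 ± 1.96 (SD, n = 3) for Fb-Epn, 0.796 ± 0.0341 for Fb-Par and 4.24 ± 0.164 for Fb-Skn. Fb-Par was thus the only one of the 3 types in which *Cspg4* exceeded *Vcan*, in 3 of 3 libraries. Their sum differed far less, at 144.8 ± 7.20 TPM for Fb-Epn, 131 ± 2.52 for Fb-Par and 138 ± 10.6 for Fb-Skn. For the sum, Fb-Skn overlapped with Fb-Epn (exact permutation p = 0.50) and with Fb-Par (exact permutation p = 0.40), whereas Fb-Epn was above Fb-Par with no overlap (exact permutation p = 0.10, the smallest possible).

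**Figure D2:**
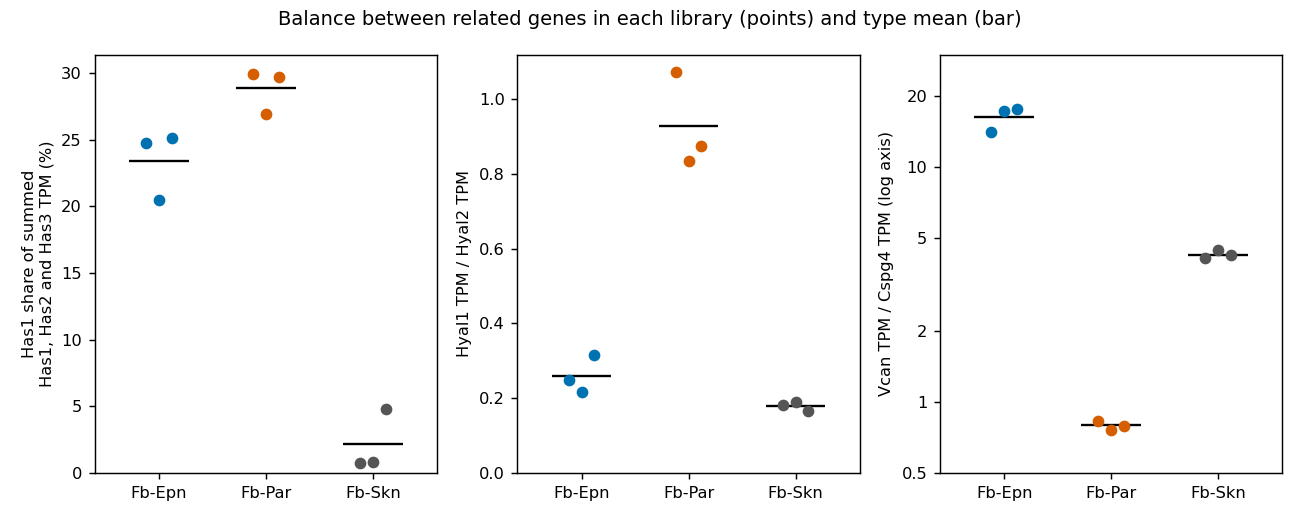
Share of *Has1* in the summed synthase TPM (left, percent), ratio of *Hyal1* to *Hyal2* TPM (middle) and ratio of *Vcan* to *Cspg4* TPM (right, log axis) in the 3 libraries of each type (points), with the type mean as a bar. The *Has1* share was at most 4.83% in Fb-Skn, the *Hyal1* ratio was highest in Fb-Par, and the *Vcan* ratio was under 1 in Fb-Par only.

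The upstream windows are also given for *Vcan* and *Cspg4*, whose orders are opposite, and for *Tnfaip6*, which was higher in both nerve-derived types. They are *Vcan* (GRCr8 chr2:22595956-22596205, minus strand, the outer of a pair of starts in RefSeq), *Cspg4* (chr8:66160692-66160941, plus strand) and *Tnfaip6* (chr3:56911148-56911397, plus strand), with the same motifs in capitals.
Vcan: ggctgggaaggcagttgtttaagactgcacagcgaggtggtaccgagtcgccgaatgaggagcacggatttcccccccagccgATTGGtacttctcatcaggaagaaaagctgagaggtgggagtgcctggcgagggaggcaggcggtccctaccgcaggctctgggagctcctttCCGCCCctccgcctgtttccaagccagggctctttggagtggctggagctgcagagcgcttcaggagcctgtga
Cspg4: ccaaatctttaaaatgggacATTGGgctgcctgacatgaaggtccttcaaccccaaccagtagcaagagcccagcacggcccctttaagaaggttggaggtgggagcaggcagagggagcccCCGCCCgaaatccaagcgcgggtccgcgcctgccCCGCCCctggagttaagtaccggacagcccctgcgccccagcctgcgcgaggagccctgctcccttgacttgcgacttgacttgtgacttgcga
Tnfaip6: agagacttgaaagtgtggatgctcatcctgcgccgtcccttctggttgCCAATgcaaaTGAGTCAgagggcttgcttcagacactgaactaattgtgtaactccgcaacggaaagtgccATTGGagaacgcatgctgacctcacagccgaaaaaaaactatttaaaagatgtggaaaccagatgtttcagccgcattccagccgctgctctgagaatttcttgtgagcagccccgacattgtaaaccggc
The *Cspg4* window held GC box matches starting 128 and 94 bases before the gene and a CCAAT match at 230 bases. *Vcan* had 1 GC box match at 74 bases and 1 CCAAT match at 167 bases in the window shown. The window of its other start had 1 GC box match at 172 bases and no CCAAT match. In *Tnfaip6* there were CCAAT matches at 202 and 131 bases and a match to the AP-1 letters at 192 bases. None of the 3 windows shown held a TATA box, E-box or kappaB match. RefSeq windows were matched for 8 of the 10 genes, and those of *Has1* and *Cd44* held none of the 6 motifs.

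*Ncan*, which encodes neurocan, a lectican best known from brain, was scarcely expressed. It is on chromosome 16 of rn6, plus strand, from 21050243 to 21076707 (ENSRNOG00000048036). Counts were 3, 2 and 3 in Fb-Epn, 26, 18 and 24 in Fb-Par and 0 in every Fb-Skn library, and the TPM in Fb-Par was 0.855 ± 0.109 (SD, n = 3). Fb-Par was above both other types in every library. Against a floor of 3 counts per Fb-Skn library, *Ncan* was at least 6.66-fold higher in Fb-Par. The ratio of Fb-Par to Fb-Epn was 8.75 (95% exact interval 4.20 to 21.1, counting error only). Because the gene was kept for testing only through Fb-Par, where it was highest, these values are a description with no test. Fb-Epn and Fb-Skn were both at or under the floor, so no fold is given. Their adjusted p of 0.0093 (edgeR) passed the threshold, but it ranged from 0.011 to 0.023 with each library left out in turn, so this call was lost in each of those fits. Fb-Par, where *Ncan* was highest, also had the highest summed Schwann cell and mural cell markers, whose part was not tested.

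**Figure D3:**
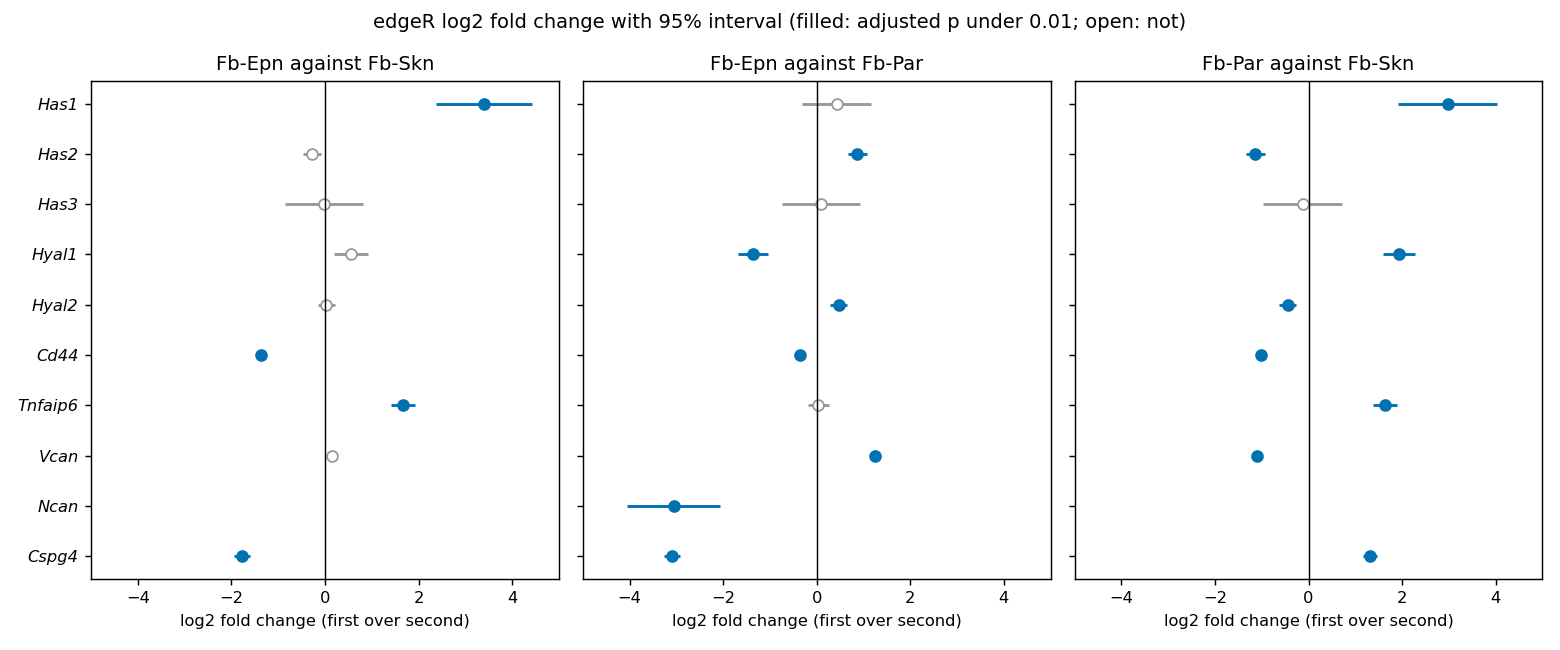
Log2 fold changes (horizontal axes) of the 10 genes in the 3 comparisons, with 95% intervals, filled where the adjusted p was under 0.01 and open where not. *Ncan* against Fb-Skn is left out because its Fb-Skn libraries had no counts. Its filled point between Fb-Epn and Fb-Par is a description, since the gene was kept for testing only through Fb-Par. The points of *Has1* against Fb-Skn are a description too, since it was kept only through the nerve-derived types. *Cspg4* had the change farthest below 0 between Fb-Epn and Fb-Par, at -3.10, and *Has3* has an open point in all 3 panels.

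*Ncan* is left out of the counts that follow, for the reason given. Over the other 9 genes, 4 passed the test between Fb-Epn and Fb-Skn, where 43.9% of all tested genes did. Of these, *Has1* and *Tnfaip6* were higher in Fb-Epn, where 23.0% of all genes were, and *Cd44* and *Cspg4* were lower, where 20.9% were. Between Fb-Epn and Fb-Par, 6 of the 9 passed (38.8% of all tested genes). *Has2*, *Hyal2* and *Vcan* were higher in Fb-Epn (20.2% of all genes), and *Hyal1*, *Cd44* and *Cspg4* were higher in Fb-Par (18.6% lower in Fb-Epn). Between Fb-Par and Fb-Skn, 8 of 9 passed (45.6%), with 4 higher in Fb-Par (23.2%) and 4 lower (22.4%). The median log2 fold change over the 9 genes was 0.02, 0.10 and -0.13 in these 3 comparisons, beside -0.0028, -0.00018 and -0.012 over all tested genes. Each comparison had 1 DE gene among the 9, beside 8.44%, 6.48% and 8.54% of all tested genes. It was *Has1* in both comparisons with Fb-Skn and *Cspg4* between Fb-Epn and Fb-Par. *Has1* was kept for testing only through the nerve-derived types, where it was higher, so its calls against Fb-Skn serve as a description. The 2 genes called in every comparison were *Cd44* and *Cspg4*. With *Ncan*, 5, 7 and 9 of the 10 genes passed. The 3 comparisons share libraries and are not independent of each other.

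A wider list of 66 genes of hyaluronan and chondroitin sulfate metabolism, the 10 genes not included, had 52 tested genes. In Fb-Epn against Fb-Skn 36 of the 52 passed (22 higher, 14 lower, 69.2% beside 43.9% of all genes), in Fb-Epn against Fb-Par 30 (18 higher, 12 lower, 57.7% beside 38.8%) and in Fb-Par against Fb-Skn 41 (23 higher, 18 lower, 78.8% beside 45.6%). The median log2 fold changes were 0.17, 0.07 and 0.03. These counts and the group counts below include genes that the expression filter kept through some types only. They were *Lyve1* (kept through Fb-Epn), *Itih5*, *Acan* and *Chst13* (kept through the nerve-derived types) and *Spock2* (kept through Fb-Epn and Fb-Skn). Their calls against the types with low counts raise the shares, which serve as a description.

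Of the 8 genes that supply the sugar precursors of hyaluronan, 4 were higher and 2 lower in Fb-Epn compared with Fb-Skn (75.0% called, beside 43.9% of all genes), 3 were higher and 2 lower in Fb-Epn compared with Fb-Par (62.5% beside 38.8%), and 5 were higher and 1 lower in Fb-Par compared with Fb-Skn (75.0% beside 45.6%). *Ugdh*, which makes UDP-glucuronate, stood at 540 ± 4.1 TPM (SD, n = 3) for Fb-Epn, 183 ± 14 for Fb-Par and 168 ± 3.6 for Fb-Skn. It was higher in Fb-Epn compared with Fb-Skn (log2 1.54, adjusted p = 1.6e-12, edgeR) and with Fb-Par (log2 1.57, adjusted p = 1.4e-12, edgeR), while Fb-Par over Fb-Skn was -0.03 (adjusted p = 0.63, edgeR). *Uap1*, which makes UDP-N-acetylglucosamine, was instead highest in Fb-Par, at 276 TPM, beside 142 in Fb-Epn and 36.8 in Fb-Skn (log2 2.76 for Fb-Par over Fb-Skn, adjusted p = 2.9e-15, edgeR). *Gfpt2*, an entry enzyme of the hexosamine route, was higher in both nerve-derived types, at 77.6 TPM in Fb-Par against 16.1 in Fb-Skn, and passed the test in all 3 comparisons (log2 2.42, 0.30 and 2.12 for Fb-Epn over Fb-Skn, Fb-Epn over Fb-Par and Fb-Par over Fb-Skn). *Ugp2*, which makes UDP-glucose, was highest in Fb-Par and 1.22 log2 units lower in Fb-Epn (log2 -1.22, adjusted p = 1.4e-11, edgeR).

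Among 6 tested genes of hyaluronan breakdown besides *Hyal1* and *Hyal2*, *Cemip* had the widest range. It encodes a protein that binds and depolymerizes hyaluronan in skin fibroblasts, and its TPM was 96.2 ± 4.0 (SD, n = 3) for Fb-Epn, 3.21 ± 0.13 for Fb-Par and 41.3 ± 0.79 for Fb-Skn. Fb-Epn exceeded Fb-Par by 4.91 on the log2 scale (adjusted p = 5.2e-17, edgeR) and Fb-Skn by 1.08 (adjusted p = 1.5e-11, edgeR), and Fb-Par was below Fb-Skn (log2 -3.83, adjusted p = 3.2e-16, edgeR). *Cemip* was thus lowest in Fb-Par, the type in which *Hyal1* was highest. *Cemip2*, a related cell-surface hyaluronidase, was at 13.2, 13.3 and 7.24 TPM and was higher in both nerve-derived types than in Fb-Skn (log2 0.73 in each, adjusted p = 1.2e-06 and 1.0e-06, edgeR). *Hyal3* was lower in Fb-Epn compared with Fb-Skn (log2 -0.88, adjusted p = 2.1e-03, edgeR).

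Of 16 other hyaluronan-binding genes and partners only 7 were tested. Of these 7, *Lyve1*, named after its values were seen, was kept for testing only through its counts in Fb-Epn and is left out here. Apart from *Lyve1*, every tested gene passed between Fb-Epn and Fb-Skn (beside 43.9% of all genes), *Itih5* included, which was kept through the nerve-derived types only. All of them but *Hapln3* were higher in Fb-Epn compared with Fb-Skn (beside 23.0%). The same genes also passed as higher in Fb-Epn compared with Fb-Par (beside 20.2%). *Ptx3*, a pentraxin that crosslinks hyaluronan together with TSG-6, was at 691 ± 4.2 TPM (SD, n = 3) for Fb-Epn, 7.60 ± 1.2 for Fb-Par and 23.8 ± 1.5 for Fb-Skn. The log2 fold change of Fb-Epn was 6.52 over Fb-Par (adjusted p = 5.2e-17, edgeR) and 4.71 over Fb-Skn (adjusted p = 1.5e-16, edgeR). *Tnfaip6* itself did not pass the test between these types, at 48.5 TPM in Fb-Epn and 47.9 in Fb-Par. *Itih5*, a heavy chain of the inter-alpha-inhibitor family, was at 17.2 TPM for Fb-Epn, 2.40 for Fb-Par and 0.285 for Fb-Skn, where it had 2 counts in each library. *Hapln3*, a link protein that ties lecticans to hyaluronan, went the other way, with 8.45 TPM in Fb-Skn beside 2.36 in Fb-Epn (log2 -1.98, adjusted p = 9.6e-06, edgeR) and 2.48 in Fb-Par. *Hapln1* had at most 2 counts in any library and was not tested. The 6 leukocyte markers, like *Ptx3*, were highest in Fb-Epn. They summed to 214 to 229 TPM for Fb-Epn, 47.7 to 51.8 for Fb-Par and 9.58 to 11.9 for Fb-Skn, with none of the 6 at 0 throughout a type. The other types went opposite ways, since *Ptx3* was lower in Fb-Par compared with Fb-Skn (log2 -1.81, adjusted p = 5.7e-10, edgeR). The part of the leukocyte markers was not tested.

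Of 8 other chondroitin sulfate proteoglycan genes 5 were tested, and 2 passed in Fb-Epn against Fb-Skn (40.0%, beside 43.9% of all genes), 4 in Fb-Epn against Fb-Par (80.0% beside 38.8%) and 3 in Fb-Par against Fb-Skn (60.0% beside 45.6%). *Acan*, which encodes aggrecan, reached 1.66 ± 0.16 TPM (SD, n = 3) in Fb-Par, beside 0.478 ± 0.13 in Fb-Epn and 0.182 ± 0.0025 in Fb-Skn, and differed in all 3 comparisons (log2 1.23, -1.78 and 3.01 for Fb-Epn over Fb-Skn, Fb-Epn over Fb-Par and Fb-Par over Fb-Skn, adjusted p = 5.6e-03, 3.5e-05 and 6.0e-07, edgeR). *Acan* was kept for testing only through the nerve-derived types, where it was higher, so its tests against Fb-Skn serve as a description. *Acan*, *Ncan* and *Cspg4* were thus each highest in Fb-Par, though *Ncan* was scarcely expressed and was kept for testing only through Fb-Par. *Vcan* was lowest there. So was *Srgn*, named after its values were seen, at 1.66 TPM beside 5.67 in Fb-Epn and 4.18 in Fb-Skn. Its log2 fold change was 1.77 for Fb-Epn over Fb-Par (adjusted p = 6.0e-05, edgeR) and -1.46 for Fb-Par over Fb-Skn (adjusted p = 3.5e-04, edgeR). *Spock2* was lower in Fb-Par compared with Fb-Epn (log2 fold change of Fb-Epn over Fb-Par 2.03, adjusted p = 2.4e-03, edgeR) and with Fb-Skn. It was kept for testing only through Fb-Epn and Fb-Skn, so these tests also serve as a description. *Ptprz1* was lower in Fb-Epn than in both other types.

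Of 12 genes that build the linkage region and the chondroitin chain, 8 passed between Fb-Epn and Fb-Skn (66.7%, beside 43.9% of all genes), 9 between Fb-Par and Fb-Skn (75.0% beside 45.6%) and 3 between the nerve-derived types (25.0% beside 38.8%), counts whose differences were not tested. *Csgalnact1*, which starts the chondroitin chain, was at 158 TPM in Fb-Epn and 154 in Fb-Par, against 70.1 in Fb-Skn (log2 1.03 and 0.98, adjusted p = 4.9e-11 and 7.3e-11, edgeR). *Chsy3*, a chain polymerase, was lower in Fb-Par, at 4.05 TPM, than in Fb-Epn at 12.5 and Fb-Skn at 11.6 (log2 1.63 for Fb-Epn over Fb-Par, adjusted p = 8.9e-07, edgeR). Both *Vcan* and *Chsy3* were thus lowest in Fb-Par. The group as a whole was split, with 4 genes higher and 5 lower in Fb-Par compared with Fb-Skn (beside 23.2% and 22.4% of all genes). In Fb-Epn compared with Fb-Par, 2 were higher and 1 was lower (beside 20.2% and 18.6%).

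Of 10 sulfation and epimerization genes, 6 passed in Fb-Epn against Fb-Skn (60.0%, beside 43.9% of all genes), 8 in Fb-Epn against Fb-Par (80.0% beside 38.8%) and 9 in Fb-Par against Fb-Skn (90.0% beside 45.6%). *Chst15*, which adds a second sulfate to chondroitin 4-sulfate, was at 3.61 ± 0.45 TPM (SD, n = 3) for Fb-Epn, 0.778 ± 0.32 for Fb-Par and 6.13 ± 1.2 for Fb-Skn, with Fb-Par below Fb-Skn by 3.10 log2 units (log2 -3.10, adjusted p = 1.3e-07, edgeR). *Chst11*, the main 4-O-sulfotransferase, was at 40.5, 34.3 and 24.6 TPM and was higher in Fb-Epn (log2 0.58, adjusted p = 4.3e-05, edgeR) and Fb-Par (log2 0.33, adjusted p = 4.7e-03, edgeR) than in Fb-Skn. *Chst7*, a 6-O-sulfotransferase, was highest in Fb-Par, at 2.74 TPM, beside 0.701 in Fb-Epn and 0.874 in Fb-Skn. *Chst13*, another 4-O-sulfotransferase, had 8 to 18 counts in the nerve-derived libraries and at most 1 in Fb-Skn. Of the 4 lysosomal genes of chondroitin sulfate breakdown 3 (75.0%), 1 (25.0%) and 4 (100%) passed in the same comparisons, beside 43.9%, 38.8% and 45.6% of all genes, with log2 fold changes from -0.33 (*Idua*, Fb-Par over Fb-Skn) to 0.42 (*Arsb*, Fb-Par over Fb-Skn).

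**Figure D4:**
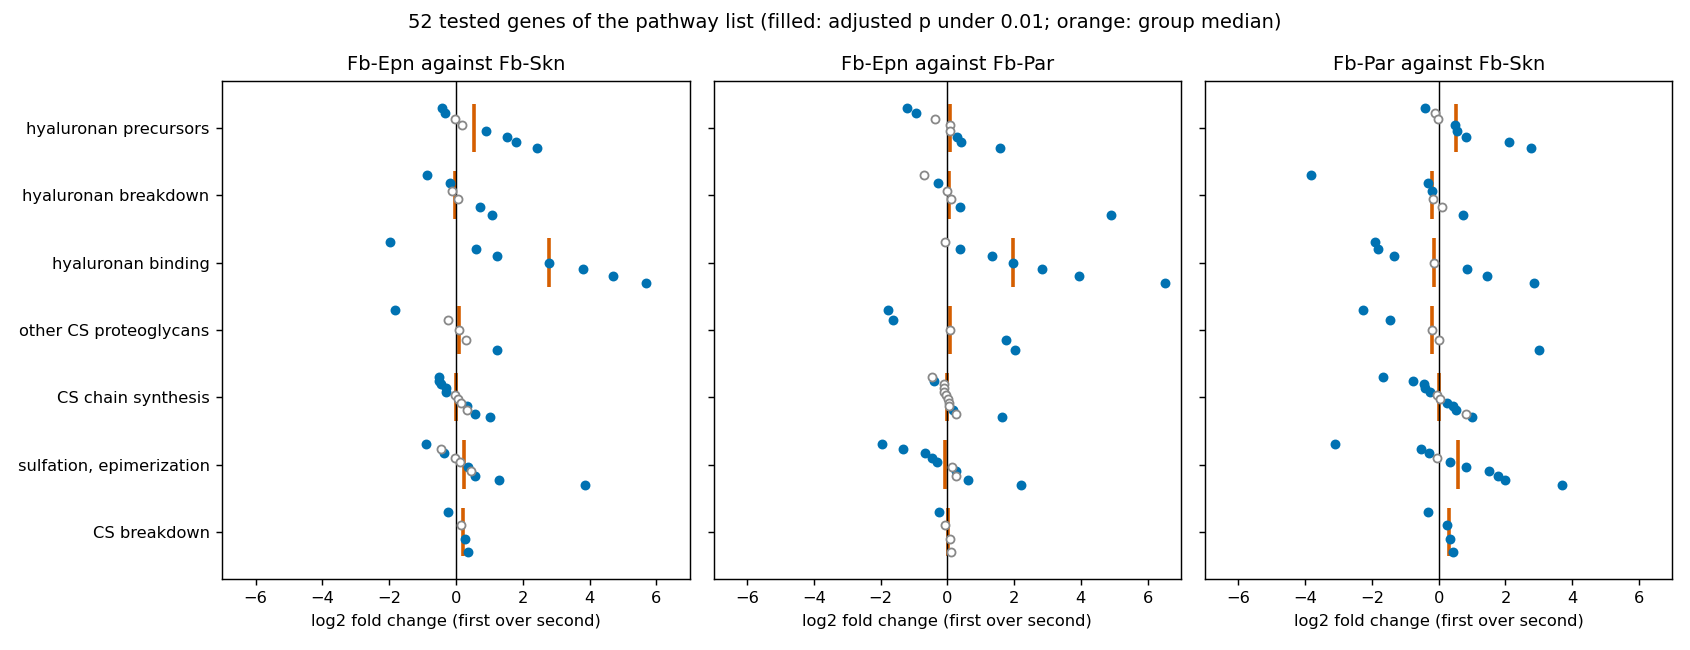
Log2 fold changes (horizontal axes) of the 52 tested genes of the wider list in 7 functional groups (rows, CS for chondroitin sulfate), filled where the adjusted p was under 0.01, with the group median in orange. In the hyaluronan-binding group, 6 of 7 genes lay to the right in both comparisons of Fb-Epn, led by *Itih5* and *Ptx3*. Of these 6, *Lyve1* was kept for testing only through Fb-Epn. *Hapln3* lay at -1.98 (Fb-Epn against Fb-Skn) and -0.07 (Fb-Epn against Fb-Par). *Cemip* was the outermost gene of the breakdown group at 4.91 (Fb-Epn against Fb-Par) and -3.83 (Fb-Par against Fb-Skn).

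Finally, the genes whose TPM pattern over the 9 libraries was most like that of 3 of the genes were listed, by Pearson's r of log2(TPM + 1) as a description. For *Has2* these were *Pdzrn3* (r = 0.992), *AABR07054262.1* (r = 0.991) and *Ddx1* (r = 0.991), with 37 genes above an r of 0.98. For *Cd44* they were *Tmem119* (r = 0.998), *Tgfb3* (r = 0.998) and *Fam169b* (r = 0.998), with 74 genes above 0.98. For *Vcan* they were *Tnc* (r = 0.994), which encodes the matrix protein tenascin-C, *Nbas* (r = 0.994) and *Ncam1* (r = 0.994), a cell adhesion gene, with 54 genes above 0.98. *Tnc* was at 1469 TPM for Fb-Epn, 260.3 for Fb-Par and 1014 for Fb-Skn. The 9 libraries fall into 3 types, so these are not 9 independent points.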

How the data were processed

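Poly(A) RNA of 9 samples was sequenced as directional paired-end libraries of 150 bp. The authors deposited raw counts per gene, TPM and FPKM for rn6. The submitters' processing notes name FastQC 0.11.7, Trimmomatic 0.38, HISAT2 2.1.0 and featureCounts 1.6.3, while the annotation release and the strand setting are not given in the sources used here. Deposited TPM equal the count over 1 length per gene (largest relative deviation 2.9e-07). Deposited FPKM are not such a rescaling and served as an alternative only.

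Types and replicate numbers came from the sample labels. Counts of all 9 libraries entered 1 model of edgeR 4.0.16 in R 4.3.3 (TMM normalization, factors 0.955 to 1.03, default expression filter by type, quasi-likelihood F test), with Benjamini-Hochberg adjustment per comparison. Replicates differed by more than sampling noise (chi-square per degree of freedom 3.31 to 5.48), so none was merged. Intervals are 95%, and the floor for folds was 3 counts per library. Shares, ratios and sums of TPM were tested with exact two-sided permutation tests. The 10 genes, the 66-gene list and the marker lists were chosen with earlier results of these data known. Another Schwann cell marker of the list is not reported here. From the wider list, the called gene with the largest change in each direction of each functional group, and *Cemip*, *Cemip2*, *Ugdh*, *Hapln1*, *Ptx3*, *Acan* and *Chst11*, could be named. *Lyve1*, *Stab1*, *Hmmr* and *Srgn* were named besides, after their values were seen. *Itih5* is listed under another symbol and was matched by its Entrez identifier. Alternatives covered normalization, filter, test (DESeq2 1.42.0, limma 3.58.1), unit, pseudocount, libraries and threshold. The fitting code was tested on simulated counts. Python 3.11.15 with numpy 2.4.6, pandas 2.3.3, matplotlib 3.10.9 and scipy 1.17.1 gave tables and plots.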

Additional observations from a re-analysis of the deposited data

How the results depend on the processing

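Of 320 values under other settings, 291 kept their direction and side of the threshold, as did 250 of 270 with 1 library left out. The counts of the 10 genes in this section have *Ncan* among the 10 and serve as a description. Shares of all genes were computed only in the main fit under 0.01. They were 43.9% (Fb-Epn against Fb-Skn), 38.8% (Fb-Epn against Fb-Par) and 45.6% (Fb-Par against Fb-Skn). At an adjusted p under 0.05, where no share of all genes was computed, 8 of the 10 genes passed between Fb-Epn and Fb-Skn. Under 0.01, 5 passed. Requiring a log2 fold change past 2 left 2 genes in each comparison, *Ncan* included, and of the wider list 6 (Fb-Epn against Fb-Skn), 6 (Fb-Epn against Fb-Par) and 8 (Fb-Par against Fb-Skn). Of all tested genes, 8.44%, 6.48% and 8.54% were left in the same comparisons. With each library left out, 4 to 5, 7 to 7 and 9 to 9 of the 10 genes passed in Fb-Epn against Fb-Skn, Fb-Epn against Fb-Par and Fb-Par against Fb-Skn, and 31 to 36, 24 to 31 and 34 to 42 of the wider list. The split of the 5 calls against Fb-Skn in Fb-Epn, 3 higher and 2 lower, was 5 and 2 with library size only, and that of the wider list, 22 and 14, was 25 and 10 with library size only and 24 and 7 with limma on log2(TPM + 1).

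Directions turned only in values that passed no test. *Has3* was 0.059 (library size only), 0.022 (log2(TPM + 1)) and 0.051 (log2(TPM + 0.1)) for Fb-Epn over Fb-Skn, -0.028 (FPKM) for Fb-Epn over Fb-Par, and 0.0028 (log2(TPM + 1)), 0.014 (log2(TPM + 0.1)) and 0.019 (FPKM) for Fb-Par over Fb-Skn. With 1 library left out, *Has3* ran from -0.38 to 0.16 (Fb-Epn over Fb-Skn) and from -0.26 to 0.29 (Fb-Epn over Fb-Par), *Hyal2* from -0.064 to 0.075 (Fb-Epn over Fb-Skn) and *Tnfaip6* from -0.046 to 0.16 (Fb-Epn over Fb-Par). In Fb-Epn against Fb-Skn, *Hyal1* and *Vcan* crossed the threshold under some settings, and *Has1* between Fb-Epn and Fb-Par passed with limma on FPKM (adjusted p = 0.0016). *Hyal2* in Fb-Par against Fb-Skn did not pass with limma on TPM (adjusted p = 0.020 with either pseudocount). For *Hyal1* and *Vcan* in Fb-Epn against Fb-Skn, the leave-one-out adjusted p was 0.0084 to 0.057 and 0.0041 to 0.073 in edgeR. The cause was not tested.

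Replicate numbers did not pair the libraries, since the correlation of same-numbered deviations was -0.080 to 0.020. With the replicate number as a block, 4, 7 and 9 of the 10 genes passed in Fb-Epn against Fb-Skn, Fb-Epn against Fb-Par and Fb-Par against Fb-Skn, and *Ncan* between Fb-Epn and Fb-Skn did not (adjusted p = 0.021, edgeR). Low counts limit *Ncan*, *Has3* and, in Fb-Skn, *Has1*.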
